A study of Mus musculus with 6 samples.

Results

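Follistatin, its relatives, the activin subunits and the activin receptors were described as a family of 9 genes: Fst, Fstl3, Fstl1, Inhba, Inhbb, Acvr2a, Acvr2b, Acvr1b and Acvr1. Members were found by matching the RefSeq accession of each non-control array probe to a gene symbol. This gave 11 of 41174 probes and 9 of the 16535 genes that carried a symbol. The family was chosen by measured values: the signal of Fst had read lower in knockout cells in an earlier pass over these same arrays. The knockout and wild-type values of its members are therefore given as a description. Where a fit over all features counts them, the count is printed and not read as a test of the family.

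RNA came from mouse embryonic fibroblasts, cells of the embryonic connective tissue. The tested cells were labelled Rap1 knockout (3 arrays) and were set against cells labelled wild type (3 arrays). Rap1 is the telomere protein encoded by Terf2ip. Its gene had been altered so that Cre recombinase removes exon 3. Per the labels, both groups had been infected with the SV40 large T antigen, which immortalises fibroblasts by binding p53 and the retinoblastoma proteins, and with Cre, and were grown in medium with puromycin. The alleles carried by the wild-type cells, the age of the embryos, and whether the arrays of a group came from separate embryos or cultures are not given in the sources used here. All values below therefore carry the spread between these samples, which may be technical.

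Activins are secreted dimers of the beta subunits encoded by Inhba and Inhbb. They bind a type II receptor (Acvr2a or Acvr2b), which recruits and phosphorylates a type I receptor, chiefly Acvr1b, and this in turn phosphorylates Smad2 and Smad3, which move to the nucleus with Smad4. Follistatin and Fstl3 wrap around the activin dimer and block its receptor-binding surfaces. In fibroblasts activin A is known for its part in wound repair and scar formation.

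A level is given here as log2 of the processed spot signal relative to the 75th percentile of its array, so 0 is a bright probe and −8 is near the background. Between 25396 and 27633 of 41174 probes per array were well above background, and 19657 features entered the comparison. Terf2ip stood above background on 0 of the 3 knockout arrays and fell at least 37.8-fold (−8.37 ± 0.63 in knockout cells and −1.74 ± 0.08 in wild-type cells, SD, n = 3 each; limma adjusted p = 0.00793). Its call was lost without wild-type array 2 or 3 or knockout array 1 or 3, with a limma adjusted p between 0.0561 and 0.0748 in these 4 fits, and with the slide as a block (0.0626), the replicate block (0.177) or wild-type arrays 2 and 3 averaged (0.0652). Wild-type arrays 2 and 3 stood apart: the SD of their log2 difference over probes was 0.19, against 0.69 to 1.06 for every other pair, and above the 0.10 to 0.14 expected from repeated spots on 1 array. The difference of each of the 9 genes is therefore also given with these arrays averaged and counted as 1. The arrays lay on 2 slides, slide 1 with knockout array 1 and wild-type array 1, slide 2 with the other 4.

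Markers of the labelled cell type were present, with 9 of 10 fibroblast markers well above background on all 6 arrays. Their summed signal, in multiples of the array's 75th percentile, was 286 to 471 in knockout cells and 452 to 569 in wild-type cells. Of the 10, 7 had a difference below 0 and 3 above. Thy1 and Pdgfra, both fibroblast surface markers, read lower on all knockout arrays, by −2.64 and −2.38 (limma adjusted p = 0.488 and 0.474). Their knockout arrays were uneven, with SDs of 2.41 and 1.74. The others below 0 were Dcn (−3.59, knockout SD 5.41), Lum (−2.19), Col1a2 (−1.23), Col3a1 (−0.81) and Fn1 (−0.31). Their limma adjusted p lay between 0.497 and 0.717. Pdgfrb, Vim and Col1a1, also fibroblast markers, differed by 0.60, 0.21 and 0.16 (limma adjusted p = 0.707, 0.722 and 0.790). The endothelial genes Pecam1, Cdh5 and Tie1 and the blood cell genes Ptprc and Adgre1 did not rise above background on any of the 6 arrays. Other genes of these lists did: Kdr (endothelial) and Cd14 (macrophage) on all 6, Csf1r (macrophage) on 4 and Tek (endothelial) on 3. Markers of further cell types were also above background on all 6 arrays. These were 4 of 4 neural and glial, 3 of 3 cartilage, 3 of 5 smooth muscle, 2 of 4 gonadal and 1 of 5 skeletal muscle genes on the array. Among the neural and glial genes 3 lay below 0 and 1 above, and S100b (−1.32, limma adjusted p = 0.353) was lower on every knockout array. Of 6 epithelial markers, 5 were above background on all arrays, and 3 of the 6 had a difference below 0 and 3 above. The summed signal of all 6 was 4.04 to 13.0 in knockout cells against 2.09 to 3.11 in wild-type cells. That sum is mostly Krt18, with mean levels of 2.66 in knockout and 1.13 in wild-type cells. No other of the 6 had a group mean above −3.03. Krt18, a keratin of simple epithelia, differed by 1.53 (limma adjusted p = 0.471) and its partner Krt8 by −1.74 (limma adjusted p = 0.486). Whether these marker differences have a part in the values of the activin family was not tested.

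Fst encodes follistatin, the main secreted binder of activins, and it had the largest difference of the 9 genes. Its probe A_51_P381821 read −3.24, −2.81 and −3.46 on knockout arrays 1 to 3, against −0.54, −1.33 and −1.18 on wild-type arrays 1 to 3. Every knockout array lay below every wild-type array, with a gap of 1.47 log2 units between the groups. The means were −3.17 ± 0.33 in knockout cells and −1.02 ± 0.42 in wild-type cells (SD, n = 3 each), a log2 difference of −2.15 (SE 0.31 in the limma fit), or 4.45-fold lower. The unscaled signals were 91.2, 119 and 122 in knockout cells and 794, 433 and 456 in wild-type cells, all well above background. In total RNA of a culture, fewer cells that express a gene and less of its RNA per cell cannot be told apart.

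Slide 1 gave an Fst difference of −2.70 and slide 2 one of −1.88. Averaging wild-type arrays 2 and 3 gave −2.27, with an SE of 0.39 and a limma adjusted p of 0.535. The main fit, which counts these near-alike arrays as separate samples, gave an SE of 0.31 and a limma adjusted p of 0.151. Fst had chosen the family, so neither p is read as a test. The Fst difference lay between −2.33 and −1.91 when any 1 array was left out. After normexp background correction with quantile normalisation it was −1.69, and the same in the deposited value table.

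Fstl3, also called FLRG, is the closest relative of follistatin and likewise binds activins and myostatin. It read −0.79, −1.60 and −0.93 on the knockout arrays and −1.86, −0.94 and −0.79 on the wild-type arrays. The groups overlapped, with knockout array 1 and wild-type array 3 both at −0.79. The log2 difference was 0.09 (SE 0.38). Slide 1 gave 1.07, slide 2 gave −0.39, and averaging the near-alike wild-type arrays gave 0.26. Fstl3 thus did not share the pattern of Fst: its lowest array was wild-type array 1, where Fst was highest.

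Fstl1 encodes a secreted glycoprotein of mesenchymal cells that has a follistatin-like domain but is not known as a strong activin binder. Its levels were 5.68, 5.11 and 4.56 on the knockout arrays and 5.27, 5.85 and 5.88 on the wild-type arrays. Knockout array 1 lay above wild-type array 1, so the groups overlapped. The log2 difference was −0.55 (SE 0.35). Slide 1 gave 0.41, slide 2 gave −1.03, and averaging the near-alike wild-type arrays gave −0.45. The 2 slides differed in sign for both Fstl1 and Fstl3, in the same way.

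Inhba encodes the beta A subunit, whose homodimer is activin A. It read 0.11, 2.53 and 2.53 on the knockout arrays and 1.69, 3.79 and 3.84 on the wild-type arrays. Both arrays of slide 1 were low for their group, by 2.43 log2 units in knockout cells and 2.13 in wild-type cells relative to the mean of the other arrays of that group. As a result the groups overlapped, since wild-type array 1 read below knockout arrays 2 and 3. Within each slide, however, the knockout arrays lay below the wild-type arrays, by −1.58 on slide 1 and −1.28 on slide 2.

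The overall Inhba difference was −1.38 (means 1.73 ± 1.40 in knockout cells and 3.10 ± 1.23 in wild-type cells, SD, n = 3 each), or 2.60-fold lower. Its SE was 0.85 without and 0.18 with the slide as a block in the limma fit (limma adjusted p = 0.533 and 0.0991). The fit with the block still counted the near-alike wild-type arrays as separate samples. Averaging these arrays, without the block, gave a difference of −1.02 (SE 0.96, limma adjusted p = 0.936). Single arrays weighed heavily on it: it was −0.57 without knockout array 1 and −2.09 without wild-type array 1.

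Inhbb encodes the beta B subunit of activin B and activin AB. Probe A_51_P325904 read −2.58, −0.62 and −2.40 on the knockout arrays and −0.13, −2.58 and −2.93 on the wild-type arrays. One array in each group stood high, knockout array 2 and wild-type array 1, and the other 4 lay within 0.53 log2 units of each other. A second Inhbb probe, A_52_P152847, was well above background only on these same 2 arrays, so both probes picked out the same samples. The log2 difference was 0.01 (SE 0.86), made of −2.45 on slide 1 and 1.24 on slide 2. Averaging the near-alike wild-type arrays gave −0.43. Inhbb thus varied by up to 2.81 log2 units between arrays.

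The signals of Inhba and Fst were also compared within each array, which cancels any scaling between arrays. Their log2 ratio was 3.35, 5.34 and 6.00 on the knockout arrays and 2.23, 5.12 and 5.02 on the wild-type arrays. These are ratios of 2 different probes, so only their differences between arrays can be read. The ratio was higher in knockout cells by 0.77 on average, by 1.12 on slide 1 and 0.60 on slide 2, but the groups overlapped. In other words, Fst was lowered by more than Inhba on both slides, but this order was not stable. Without wild-type array 1 the differences were −1.91 for Fst and −2.09 for Inhba. After normexp with quantile normalisation they were −1.69 and −1.42.

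**Figure D1:**
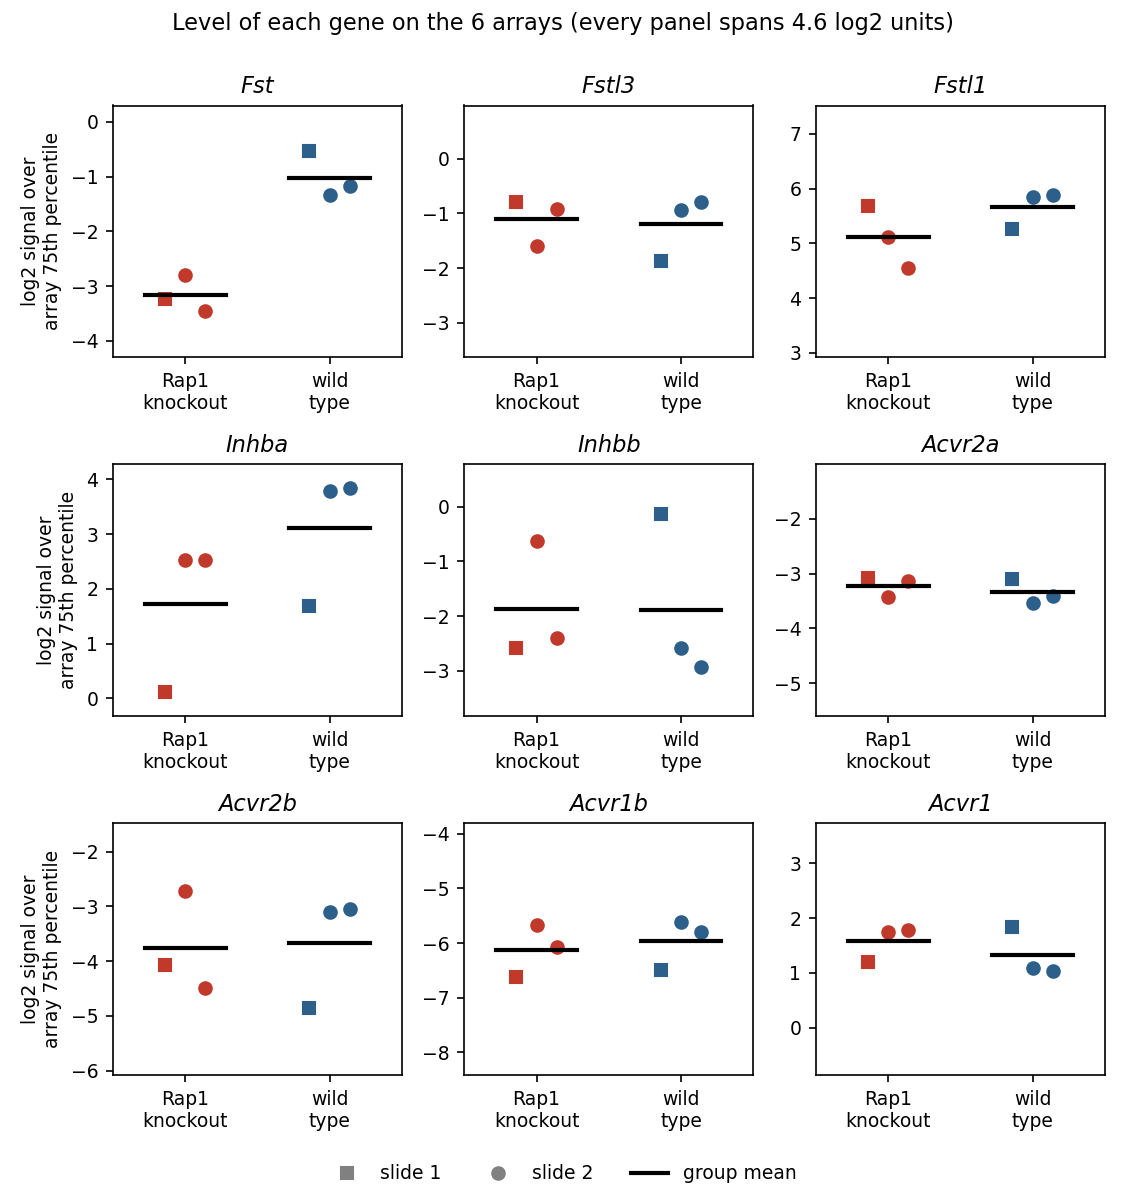
Level of each of the 9 genes on every array, as log2 of signal over that array's 75th percentile (y axis), for Rap1 knockout cells (left, red) and wild-type cells (right, blue). Squares are arrays of slide 1, circles arrays of slide 2, and bars group means (n = 3 each). The groups are apart for Fst, Inhba is low on slide 1 in both groups, and Inhbb is high on 1 array of each group.

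The type II receptors bind the ligand first and are active kinases. Acvr2a varied least of the 9 genes: probe A_52_P575854 read −3.08, −3.43 and −3.14 on the knockout arrays and −3.10, −3.53 and −3.41 on the wild-type arrays. The difference was 0.12 (SE 0.23), with 0.02 on slide 1 and 0.18 on slide 2, and 0.06 with the near-alike arrays averaged. A dimmer Acvr2a probe, A_52_P664656, differed by −0.54, and its knockout arrays spread more widely (SD 0.86, against 0.26 in wild-type cells). The probes disagreed in direction, and the mean of both gave −0.21. Acvr2b read −4.08, −2.71 and −4.50 on the knockout arrays and −4.86, −3.11 and −3.04 on the wild-type arrays, with a difference of −0.09 (SE 0.65) that had opposite signs on the slides (0.78 and −0.53). Averaging the near-alike arrays turned it to 0.21, and leaving out single arrays moved it as far as −0.69 (wild-type array 1 left out) and 0.28 (knockout array 3 left out).

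The type I receptors carry the signal to the Smads. Acvr1b, also known as ALK4, read −6.62, −5.67 and −6.07 on the knockout arrays and −6.50, −5.61 and −5.79 on the wild-type arrays. Its unscaled signals of 8.79 to 22.3 stood close above the lowest signals called well above background (7.18 to 13.4 per array). The difference was −0.15 (SE 0.36), with −0.12 on slide 1 and −0.17 on slide 2, and −0.02 with the near-alike arrays averaged. Acvr1, also known as ALK2, serves mainly bone morphogenetic proteins and signals through Smad1 and Smad5, and activin A can engage it without activating it. It read 1.19, 1.74 and 1.79 on the knockout arrays and 1.83, 1.09 and 1.02 on the wild-type arrays. The difference was 0.26 (SE 0.32), with −0.64 on slide 1 and 0.71 on slide 2, so its sign also depended on the slide. With the near-alike arrays averaged it was 0.13.

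Across the family, all 9 genes were measured, 10 of the 11 probes being well above background on all arrays, and no gene was removed by the filter on dim probes. The limma fit over all 19657 features called 0.0102% of them at a Benjamini-Hochberg adjusted p under 0.05 (2 features, both lower in knockout cells), and 0 of the 9 genes. The groups did not overlap for 1 gene, Fst, against 17.2% of all features (11.3% higher and 5.88% lower in knockout cells). At least 2-fold lower and not overlapping was again Fst alone, against 2.64% of all features, and 0 of the 9 were at least 2-fold higher and not overlapping, against 1.66%. Nothing is read from these counts, because Fst had been seen first. The median difference of the 9 genes was −0.09, against 0.07 for all features, with 5 genes below 0 and 4 above. With quantile normalisation or median scaling Acvr2b changed sign and the median turned to 0.01. Leaving out single arrays moved the median between −0.55 (without knockout array 2) and 0.06 (without knockout array 1), and it was −0.42 without wild-type array 1. Among the 7 genes other than Fst and Inhba the differences ran from −0.55 to 0.26, none reaching the size of 1 log2 unit. Of these 7, 5 had opposite signs on the slides: Fstl3, Fstl1, Inhbb, Acvr2b and Acvr1. Fst and Inhba were the only members at least 2-fold lower, and both were lower on both slides. Without knockout array 1 Inhba was at −0.57 and no longer 2-fold lower. How many of all features changed sign between slides, or were 2-fold lower with or without overlap, was not counted. Nothing is therefore read from these counts either.

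**Figure D2:**
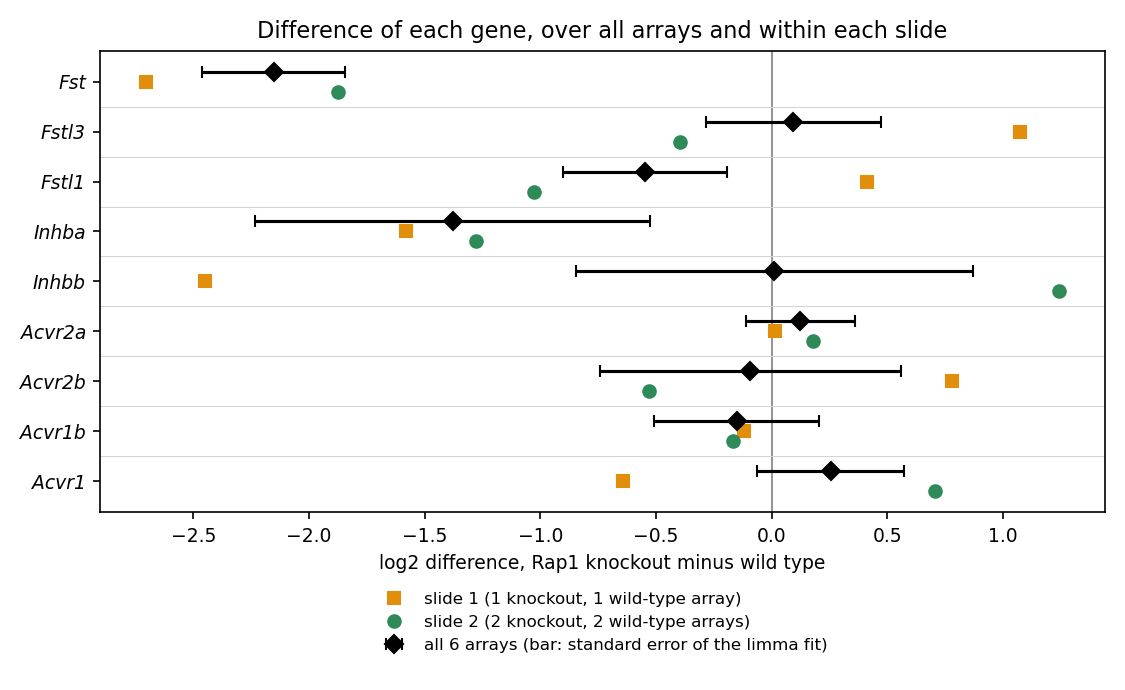
Log2 difference of each gene, Rap1 knockout minus wild type (x axis), over all 6 arrays (black diamonds, bars show the standard error of the limma fit), on slide 1 (orange squares, 1 array of each group) and on slide 2 (green circles, 2 arrays of each group). Fst and Inhba lie below 0 by at least 1.28 on both slides, while Inhbb runs from −2.45 on slide 1 to 1.24 on slide 2.

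Features whose levels followed Fst and Inhba across the 6 arrays were ranked by Pearson correlation among 11248 other named features above background on all arrays. The points are 6 arrays, 2 of which are nearly alike, so r is only a measure of likeness. Closest to Fst were Cyp26b1, which degrades retinoic acid (r = 0.996), Car9, a carbonic anhydrase (0.990), Calcrl, a receptor of adrenomedullin (0.987), Slit3, a guidance ligand (0.987), and Foxn2, a forkhead factor (0.984). All 5 were lower on every knockout array than on any wild-type array. So was Fst, and a ranking by likeness to Fst favours such features, so nothing is read from this. Their differences ran from −0.86 for Calcrl to −3.00 for Cyp26b1 and −3.11 for Slit3, so some were larger than that of Fst. For each of the 5, wild-type array 1 was the highest array, as it was for Fst, which the ranking favours as well.

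Closest to Inhba were Tpp2, a peptidase (r = 0.997), Tiparp, an ADP-ribosyltransferase induced by the aryl hydrocarbon receptor (0.996), Zfp189 (0.995), Npm1, a nucleolar chaperone (0.995), and Ola1, an ATPase (0.994). Their groups overlapped and their differences were smaller, from −0.31 for Ola1 to −0.64 for Tiparp. Each was lowest on knockout array 1 and next lowest on wild-type array 1, the arrays of slide 1. Inhba had the same order, and the ranking by likeness favours it.

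**Figure D3:**
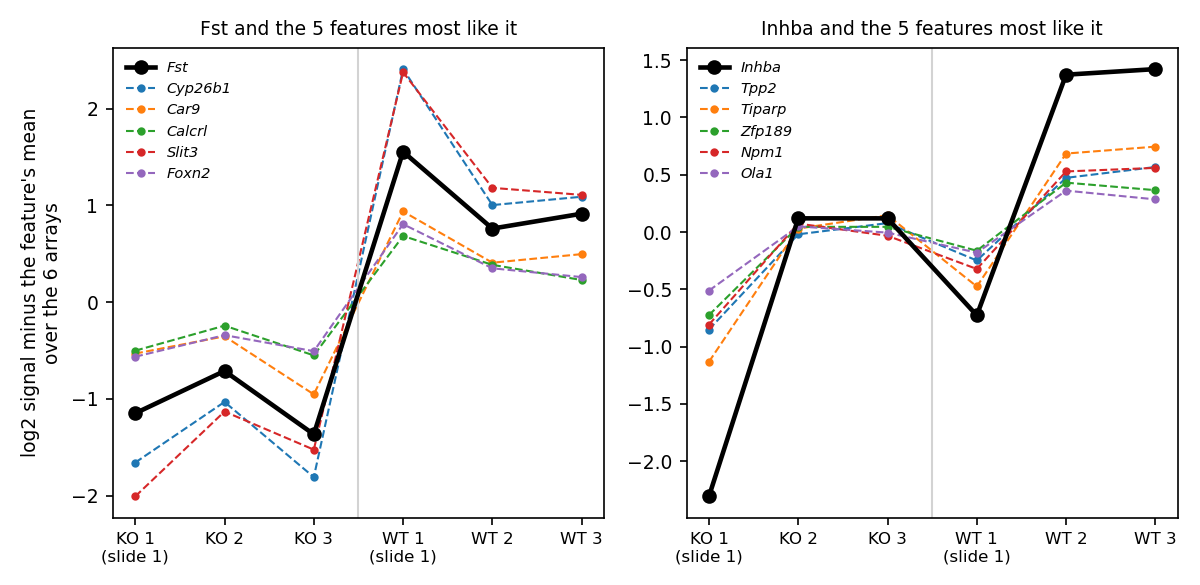
Profiles of Fst (left) and Inhba (right) in black, each with the 5 named features of highest Pearson correlation over the 6 arrays (dashed), as log2 signal minus the feature's own mean (y axis), for knockout (KO) and wild-type (WT) arrays (x axis, lines join arrays only to guide the eye). The Fst panel splits at the boundary of the groups, and the Inhba panel dips at both arrays of slide 1.

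Other genes of the pathway came from 5 lists of ligands, receptors, Smads, Smad target genes and follistatin-domain genes, 71 genes in all, of which 67 were on the array and 57 were measured. None of the 57 passed in the limma fit over all features (0 higher, 0 lower, 5 at an unadjusted p under 0.05, against 10.3% of all features). Of the 57, 39 had a difference below 0 and 18 above, against 44.6% of all features below 0. The 57 are not separate from the cell type markers: Col1a1, Col1a2 and Fn1 are also fibroblast markers, and Acta2 and Tagln smooth muscle markers. Smad7, Skil and Pmepa1 are in 2 of the lists and were counted once here. Their median was −0.30, against 0.07 for all features. The groups did not overlap for 6 that were lower and 1 that was higher in knockout cells, against 5.88% lower and 11.3% higher among all features. The 1 that was higher, Fstl4, passed the filter only through the knockout arrays.

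Among 6 other measured ligands, the 3 of smallest p were Gdf1, Gdf11 and Lefty1. Gdf1, a partner of Nodal in left-right patterning that is transcribed together with Cers1, read 2.28, 2.83 and 2.77 on the knockout arrays and 3.22, 3.23 and 3.26 on the wild-type arrays (difference −0.61, SE 0.24, limma adjusted p = 0.486). Because of the shared transcript the probe may read Cers1 as well. Gdf11, which signals through the activin type II receptors, differed by 0.83 (SE 0.41, limma adjusted p = 0.502), and Lefty1, a Nodal antagonist, by 1.60 (SE 0.86, limma adjusted p = 0.512). Both groups overlapped for Gdf11 and Lefty1. Inha, the alpha subunit that turns an activin into an inhibin, was named for its role and not by the rule, and differed by −0.65 (SE 0.48). Myostatin, another ligand bound by follistatin and encoded by Mstn, rose above background on 0 of the 6 arrays.

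Receptors and co-receptors had a median of −0.57 over 10 measured genes, 8 of them below 0. Tgfbr3 encodes betaglycan, the co-receptor through which inhibin competes with activin for type II receptors. It read −3.89, −3.34 and −4.01 on the knockout arrays and −2.82, −2.61 and −2.51 on the wild-type arrays, so the groups were apart by 0.52. The difference was −1.10 (SE 0.26, limma adjusted p = 0.356), and it was alike on the slides at −1.07 and −1.12. Tgfbr1, the type I receptor of TGF-beta, also lay lower on every knockout array, by −0.80 (SE 0.25, limma adjusted p = 0.471). Bambi, a decoy receptor that lacks a kinase domain, differed by −0.84 (SE 0.40, limma adjusted p = 0.497), with overlapping groups.

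The Smads and their regulators had a median of −0.01 over 19 measured genes, 9 above 0 and 10 below, and their groups overlapped in every case. Smad2, Smad3 and Smad4, which carry the activin signal and were named for that role, differed by −0.08 (SE 0.22), 0.09 (SE 0.23) and −0.04 (SE 0.26). By smallest p, the leading genes were Tgif1 and Tgif2, homeobox repressors that bind Smad2 and Smad3, and Smad9 of the bone morphogenetic protein branch. Tgif1 differed by −0.97 (SE 0.44, limma adjusted p = 0.497), Tgif2 by 0.63 (SE 0.35, limma adjusted p = 0.517) and Smad9 by 1.08 (SE 0.59, limma adjusted p = 0.512). Smad9 was dim, with 2 of 3 wild-type arrays well above background. It passed the filter only through the knockout arrays, where it was higher, so nothing is read from its direction. Its difference was 0.28 after normexp with quantile normalisation and 0.27 in the deposited value table.

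Target genes of Smad2 and Smad3 had a median of −0.26 over 16 measured genes, 12 of them below 0. Ccn2, a matricellular protein induced by TGF-beta and activin, had the largest difference of all 57, at −2.64 (SE 0.37, limma adjusted p = 0.145). It read 4.22, 3.34 and 3.37 on the knockout arrays and 5.72, 6.47 and 6.65 on the wild-type arrays. On slide 2 alone, where wild type consisted of the near-alike pair, it passed at −3.21 (limma adjusted p = 0.0282, within 0.0282 to 0.620 over its alternatives). Acta2, smooth muscle actin, differed by −1.20 (SE 0.63, limma adjusted p = 0.509) and Col1a2, a collagen chain, by −1.23 (SE 0.56, limma adjusted p = 0.497), both with overlapping groups. Acta2 was −0.61 without wild-type array 1, and Col1a2 was −0.73 without knockout array 2 and −1.88 without knockout array 1. Fn1, the only other target whose groups did not overlap, was named for that reason and differed by −0.31 (SE 0.22). Smad7 and Pmepa1, induced directly by Smads and named for that role, differed by 0.31 (SE 0.27) and −0.36 (SE 0.35).

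Of 9 other measured genes with follistatin domains, 7 lay below 0, with a median of −0.32. Smoc2, a matricellular protein, read −0.51, −1.11 and −1.71 on the knockout arrays and 0.21, −0.03 and 0.09 on the wild-type arrays (difference −1.20, SE 0.34, limma adjusted p = 0.441). Tmeff2, a membrane protein, differed by −1.34 (SE 0.68, limma adjusted p = 0.504), with 0.75 on slide 1 and −2.39 on slide 2. Sparc, a collagen-binding matrix protein, differed by −0.44 (SE 0.27, limma adjusted p = 0.531). Fstl4 was the 1 gene of the 57 whose knockout arrays all lay above the wild-type arrays, by 0.36 (SE 0.24). With 2 of 3 wild-type arrays well above background, it passed the filter only through the knockout arrays, where it was higher. Nothing is read from its direction.

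**Figure D4:**
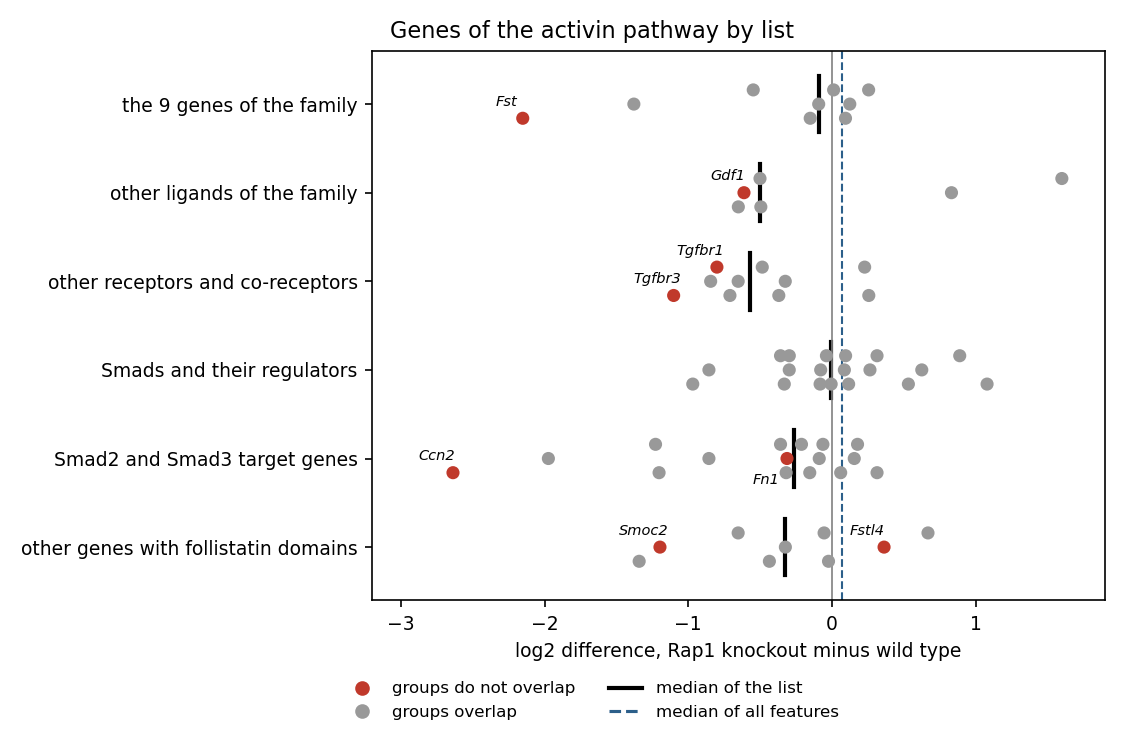
Log2 difference, Rap1 knockout minus wild type (x axis), of the 9 genes of the family and of the measured genes of 5 pathway lists (rows, 1 point per gene). Red points mark genes whose groups do not overlap, black bars the median of each list and the dashed line the median of all features, 0.07. Fst at −2.15 and Ccn2 at −2.64 lie farthest from 0, and the Smads centre on −0.01.

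Short promoter stretches are shown for the members whose RefSeq windows (assembly GRCm38.p6, 250 bases before to 50 bases after the annotated start) held letters tied to Smads or to start site choice. Windows were found for 8 of the 9 genes, all but Fst. The capitals mark the motif on the strand of the gene.
Inhba, TATAAA 91 bases before the start, chr13:16011748-16011777, plus strand: acaacttctaaaTATAAAtctctggcacat
Fstl3, TATAAA on the opposite strand 29 bases before the start, chr10:79777233-79777262, plus strand: ccgccctgggctTTTATAggccgaggcgtc
Fstl3, the first of its CAGAC letters on the opposite strand, 161 bases before the start, chr10:79777101-79777130, plus strand: tcctagacaactGTCTGgttcccagatggg
Acvr2a, CAGAC on the opposite strand 188 bases before the start, chr2:48813909-48813938, plus strand: gcccgccgtcccGTCTGctcggtctcggtt
Acvr2b, CAGAC on the opposite strand 233 bases before the start, chr9:119401933-119401962, plus strand: cctagccctagaGTCTGgtgctgcaggcgc
CAGAC, the short box that Smad3 and Smad4 bind, searched on both strands, was in 3 of the 8 windows and in 49.6% of all 32851 windows of this length. The palindrome GTCTAGAC was in 0 of 8, against 0.213% of all windows. TATAAA was in 2 of 8, against 13.6%. The GC box GGGCGG was in 7 of 8, all but Inhba, against 35.7%. A match describes the letters of these windows and not a site in use.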

How the data were processed

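RNA labelled with Cy3 was hybridised to Agilent mouse arrays, 1 array per sample. Scanner output as deposited gives intensity values of Feature Extraction 10.5.1.1 (version per the file headers). They comprise a processed signal, corrected for background and detrended within the array by the software, the median signal and local background, and flags (other values, 0 or 1, as deposited). The deposited value table holds log2 values, and the submitters' processing notes name limma. Of its knockout columns, 1 matched scanner file 2, 2 matched file 3 and 3 matched file 1. Replicate numbers and slides here are those of the scanner files.

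Control spots (1639 of 45018) and outlier spots were left out, spots of a probe were averaged, and log2 of the processed signal minus the array's 75th percentile was used. A probe was kept if every array of 1 group, or of both, had it well above background (25520 of 41174). RefSeq accessions matched 23374 probes to symbols, and the kept probe with the highest mean stood for its gene. The files name build mm8, so no gene coordinates were used. The groups were compared in R 4.3.3 with limma 3.58.1 (lmFit and eBayes, knockout minus wild type, 2-sided, Benjamini-Hochberg 0.05, no block). The fit was also tested on simulated data. Arrays were independent there, so that test could not check the effect of near-alike arrays or shared slides. The mean spot signal was not used, so normexp (offset 50) ran on the median signal. Precision is limited by how few arrays there are.

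The genes, lists and alternatives were chosen with earlier results of these data known. Named were all 9 genes, in each list the 3 measured genes of smallest p, the 5 features most like Fst and Inhba, and Terf2ip. Others were named after their values were seen.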

Additional observations from a re-analysis of the deposited data

How the results depend on the processing

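Fst kept a difference below 0 in all 19 alternatives, with −1.69 after normexp and in the value table and −2.70 on slide 1. Because its groups did not overlap, leaving out, splitting or averaging arrays could not change its sign. The probe filters, averaging of probes, variance setting and blocks left it at −2.15. Its constant sign is therefore not read as support, also because Fst had chosen the family. Inhba kept its sign in all 19, between −2.09 and −0.57. The same filters, averaging of probes, variance setting and blocks left Inhba at −1.38. Acvr2b took the opposite sign in 8 of 19, Inhbb in 5, Fstl3 in 3, Acvr1b in 2, and Fstl1, Acvr2a and Acvr1 in 1 each. Of 19657 features, 2 passed. The count was 0 over probes above background on all arrays (1781 at an unadjusted p under 0.05), with the slide as a block (3483), with the replicate block (2354) and with the near-alike arrays, wild-type 2 and 3, taken as 1 (692). It was 4 with the mean of a gene's probes and 302 on slide 2 alone, and between 0 and 64 without single arrays: 64 without wild-type array 1, and 0 without wild-type array 2 (700), wild-type array 3 (697) or knockout array 1 (1620). In the fits with 64 and 302 calls the near-alike arrays were the only wild type. Of the pathway genes 1 passed on slide 2 alone, Ccn2, and 0 under the other alternatives, single arrays left out included. The 15 pathway genes named by the rule kept their direction under all alternatives with a test, but Gdf11, Tgif2, Smad9 and Tmeff2 had the opposite sign on slide 1, which allows none. Leaving out 1 array moved 8 of the 15 by over 1.5 times: Gdf11, Lefty1, Smad9, Tgif2, Acta2, Col1a2, Sparc and Tmeff2. Replicate numbers did not pair the samples (correlations of same-numbered deviations 0.01, 0.05 and −0.08, and knockout array 1 alone correlated best with its own number). The replicate block (Fst −2.15) changed no call among the pathway genes. Scaling by the array median moved the median of all features by 0.11, and keeping dim probes moved it by −0.15. Where a cause is not shown by the setting itself, the cause was not tested. Signal over background limits Acvr1b, the dimmer probes of Inhbb and Acvr2a, and Smad9 and Fstl4 among the named pathway genes.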
